A study of Mus musculus with 5 samples.

Results

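The matrix metalloproteinases, the Adam and Adamts proteases and their inhibitors, the Timps, were followed in the luminal layer of the mouse uterus from before receptivity to embryo attachment. Members were all rows of the count table whose gene symbol is Mmp, Timp, Adam or Adamts followed by a number and at most 1 letter. This rule gave 79 of 23420 genes, namely 23 Mmp, 4 Timp, 33 Adam and 19 Adamts genes. The study used pregnant wildtype C57BL/6N females, with the day of the vaginal plug as day 1, and collected luminal layers by laser microdissection. There were 5 RNA-seq libraries with 1 library in each group. They came from day 3 morning, day 4 morning, day 4 evening and day 5 morning. On day 5 the layer was taken at 2 places, one remote from the attached embryo and one surrounding it, which the column headers call Mpole and Ampole and which are named the M pole and the AM pole here (away and around in the plots). The labels of the day 3 and day 4 libraries name the uterine luminal layer without a pole. Day and place therefore cannot be told apart in differences between day 4 and day 5. Between the day 5 libraries, pole and nearness to the embryo cannot be told apart. All 5 groups share the genotype and strain. Mice of both day 5 groups had received the dye Chicago blue intravenously to show the implantation sites, and no other agent is given in the labels. The ages of the mice are not given in the sources used here. The study's methods describe pools of RNA from 3 samples for the luminal layers of its Lif groups, and whether the libraries used here were pooled in the same way is not stated. With 1 library per group no difference has a replicate check, and no test between conditions was possible.

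Matrix metalloproteinases are secreted or membrane-anchored zinc enzymes that cut collagens, laminins, fibronectin and other matrix proteins. Adams are mostly membrane proteins, and those with an active protease domain release growth factors, cytokines and adhesion molecules from the cell surface. Adamts enzymes are secreted and cut proteoglycans such as versican or process procollagen, and Timps bind the active site of the metalloproteinases and block it. In the uterus these genes are known for the remodelling of the basement membrane and the stroma around the implanting embryo.

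The libraries held between 15334674 and 19529491 counts, and between 47 and 53 members were counted at least once in each. Levels are given as CPM, the counts per 1000000 after scaling of the library sizes by TMM, and, to compare genes, as RPKM, which is CPM divided by the gene length in kilobases. A difference was judged only by its size, in the 12915 genes whose CPM averaged 1 or more over the 5 libraries, and a gene was called higher or lower when its log2 CPM differed by more than 1. Brackets give the 95% Clopper-Pearson interval of the ratio of the scaled counts of a gene, on the log2 scale and without the prior count of 2 that the differences carry. The intervals cover counting error only. The epithelial genes Krt8, Krt18, Epcam and Cdh1 had at least 7016 counts in each library, and the summed level of 8 epithelial markers ranged from 5363 to 8510 CPM. In the AM pole library, Pou5f1, Gata4, Cdx2, Nanog and Hand1 had 68, 54, 22, 10 and 5 counts, and all 5 genes had 0 counts in the other libraries. Prl3d1 had 0 counts in all 5 libraries, while Sox17, listed with them as an embryo gene, had at least 14211 counts in each. Of the 10 stromal markers 1 was called higher and 4 lower at the AM pole than at the M pole. Hand2 had 2282 against 389 counts, Col3a1 729 against 2640 and Dcn 242 against 1709. All 5 smooth muscle markers were called higher at the AM pole than at the M pole, with Des at 6090 against 369 counts. Of all genes tested 13.4% were higher and 15% lower in this comparison. The part of such cells in the results below was not tested, and in microdissected layers a change in the cells collected and a change of RNA per cell cannot be told apart.

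Among the 79 members, 33 passed the filter on low values, 31 were counted at a lower level and 15 had 0 counts in all 5 libraries. The 33 comprised 7 of the 23 Mmp, 3 of the 4 Timp, 12 of the 33 Adam and 11 of the 19 Adamts genes. A level of at least 10 CPM in 1 or more libraries was reached by 22 members, and Timp4 was followed with them as the remaining inhibitor. Timp4 had 1, 2, 0, 5 and 3 counts in the order of the libraries above and is at the limit of detection. The 15 uncounted members were 12 Adams, which include Adam3, Adam24, Adam25 and Adam30, and Mmp1a, Mmp1b and Mmp20. A count of 0 allows up to 3 counts, which equals between 0.161 and 0.190 CPM. All members but Mmp1a, a polymorphic pseudogene, are annotated as protein-coding in GENCODE vM21.

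**Figure D1:**
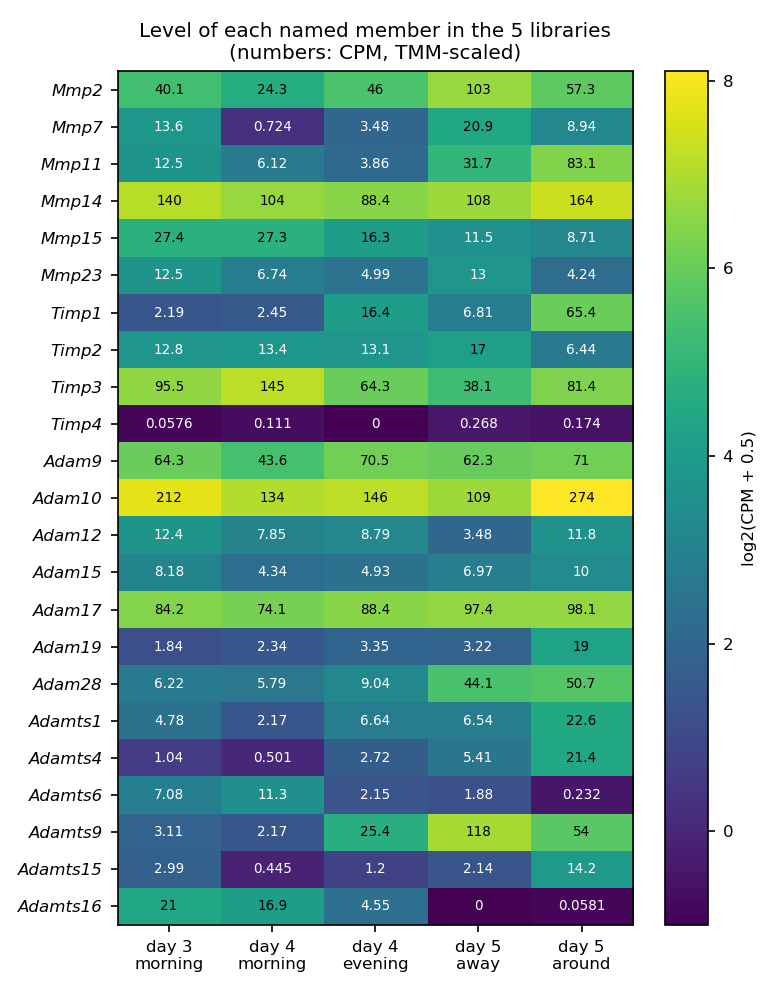
Level of the 23 named members (rows) in the 5 libraries (columns), with CPM written in each cell and the colour giving log2(CPM + 0.5). Adam10 and Mmp14 stay above 88 CPM in each library, and Adamts9, Mmp11, Adam28 and Timp1 brighten on day 5 while Adamts16 goes dark.

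Many Mmp genes are neighbours in the genome. Of the 23 Mmp genes 10 lie side by side on chromosome 9 (7272514 to 7699416 of GRCm38/mm10), and Mmp7 was the only gene of this cluster that passed the filter. The 250 bases before the start of transcription were searched for the AP-1 motif TGANTCA, which is its own reverse complement, so that both strands are covered. RefSeq promoters of GRCm38.p6 were at hand for 49 of the 79 members. The motif stood in the promoters of 12 of the 49 members (24.5%) and in those of 7.82% of all 27025 genes of the RefSeq promoter table. Of the 12 members 8 were Mmp genes of the chromosome 9 cluster, in which all 10 genes had a promoter entry. Among the 18 members with an entry that passed the filter, 2 had the motif. Among the 15 named members with an entry it stood in 2 (13.3%). The following windows, 5′ to 3′ on the strand of the gene, show the motif in capitals with 11 bases on either side for the cluster members, and for Adam19, the other member that passed the filter.

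Mmp7 (chr9:7692016-7692044): aagtgtgcaaaTGAGTCAcctatttccac
Mmp13 (chr9:7272468-7272496): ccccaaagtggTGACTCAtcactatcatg
Mmp12 (chr9:7347319-7347347): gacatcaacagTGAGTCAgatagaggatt
Mmp3 (chr9:7445765-7445793): ggaagcaattaTGAGTCAgttttcgggtg
Mmp10 (chr9:7502268-7502296): tagcacccatgTGAGTCAtgcttagtgac
Mmp1a (chr9:7464057-7464085): gttgtcaaccaTGAGTCAcatagcctctg
Mmp1b (chr9:7388102-7388130): gttacaaagccTGAGTCAtatagcctctg
Mmp20 (chr9:7628125-7628153): catttgagacaTGAATCAtcacttacagg
Adam19 (chr11:46055842-46055870): tgtccttcaccTGAGTCAgcgatgctccc

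The motif began 63 bases before the start in Mmp7, 35 in Mmp13, 44 in Mmp12, 46 in Mmp3, 63 in Mmp10, 73 in Mmp1a, 93 in Mmp1b and 95 in Mmp20. All of these genes but Mmp1b lie on the plus strand of chromosome 9. In Adam19 the motif began 131 bases before a start. The level of the genes with the motif ran from 0 counts in Mmp1a, Mmp1b and Mmp20 to 389 counts of Mmp7, so a match in this window was found at levels from 0 upwards. The Stat motif TTCNNNGAA, also its own reverse complement, stood in the promoters of 3 of the 49 members (6.12%) and of 8.13% of all genes of that table. A motif match describes letters and is not evidence of binding.

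The whole upstream stretch of Mmp7 is shown because it is the leading gene of the cluster, with the AP-1 match in capitals (chr9:7691840-7692089, plus strand).

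Mmp7: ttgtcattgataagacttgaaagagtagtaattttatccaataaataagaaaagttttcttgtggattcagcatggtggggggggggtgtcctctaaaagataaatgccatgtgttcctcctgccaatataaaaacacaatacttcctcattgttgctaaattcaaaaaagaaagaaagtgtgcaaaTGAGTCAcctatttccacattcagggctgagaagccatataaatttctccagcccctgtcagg

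Matrilysin, encoded by Mmp7 (chromosome 9, 7692111 to 7699416), is an epithelial enzyme that cuts matrix proteins and cell surface proteins. Its counts were 236, 13 and 55 in the day 3 morning, day 4 morning and day 4 evening libraries, 389 at the M pole and 154 at the AM pole. The day 4 morning library was thus the lowest, with 0.724 CPM, and the M pole library the highest, with 20.9 CPM. Mmp7 fell by 4.03 [-5.16, -3.43] on the log2 scale from day 3 to day 4 morning, and on day 4 evening it was 4.28-fold higher than in that morning. From day 4 morning it rose by 4.64 [4.06, 5.77] at the M pole and by 3.43 [2.81, 4.57] at the AM pole. Between the day 5 libraries, Mmp7 was lower at the AM pole by a log2 difference of -1.21 [-1.50, -0.95].

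Mmp11 (chromosome 10, 75923224 to 75932463) encodes stromelysin 3, which is activated inside the cell by furin and is known from tissue remodelling. Its counts were 217, 110 and 61 on day 3 morning, day 4 morning and day 4 evening, 592 at the M pole and 1432 at the AM pole. Both day 5 libraries were above the 3 earlier ones, and the AM pole library was the highest. The log2 rise from day 4 morning was 2.35 [2.08, 2.68] at the M pole and 3.74 [3.48, 4.06] at the AM pole, and the difference between the day 5 libraries was 1.39 [1.25, 1.53]. The earlier fall from day 3 to day 4 morning, -1.01 [-1.37, -0.69], lay at the limit for a call and was -0.997 with DESeq2 size factors, which ends the call.

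Mmp2 (chromosome 8, 92827328 to 92853420), the gelatinase that cuts collagen IV of basement membranes, had 697, 437 and 728 counts in the first 3 libraries, 1918 at the M pole and 987 at the AM pole. It was called higher on day 5 than on day 4 morning in both places, by 2.07 [1.93, 2.23] at the M pole and 1.23 [1.07, 1.40] at the AM pole. Between the day 5 libraries Mmp2 differed by -0.84 [-0.96, -0.73], and by -1.15 with library totals, which makes it a call. Its activator Mmp14 (chromosome 14, 54431604 to 54441258), a membrane-type enzyme, had the highest RPKM of the Mmp genes in each of the 5 libraries. Counts of Mmp14 were 2425, 1860, 1399, 2011 and 2830 in the same order, and no comparison passed a log2 difference of 1. The largest difference of Mmp14 from day 4 morning was 0.67 [0.58, 0.75], at the AM pole. Mmp15, another membrane-type enzyme (chromosome 8, 95352337 to 95374293), had 475, 491, 258, 215 and 150 counts and was called lower than on day 4 morning in both day 5 libraries, with log2 differences of -1.24 [-1.48, -1.01] at the M pole and -1.64 [-1.92, -1.38] at the AM pole. With library totals in place of TMM the value at the M pole was -0.96, which ends that call.

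Mmp23 (chromosome 4, 155650655 to 155653384) had 217, 121, 79, 242 and 73 counts, and its level at the AM pole was 3.01-fold lower than at the M pole. At the M pole it differed from day 4 morning by 0.93 [0.62, 1.27], and by 1.21 with library totals, which makes it a call. Mmp19, which passed the filter below 10 CPM, had 18, 41, 36, 20 and 12 counts, and 789 of its 3453 counted bases overlap Tmem198b on the opposite strand. Reads of the pair cannot be told apart without strand, which the sources used here do not give. Mmp9, the gelatinase of neutrophils and of trophoblast giant cells, had 0, 0, 3, 4 and 59 counts and did not pass the filter. It was named after its values were seen, because it had 59 counts in the AM pole library. The cells that gave these counts were not tested. That library also had 955 counts of the neutrophil gene S100a8, against at most 21 in the others, while Itgam had 20 counts there and between 27 and 67 elsewhere. Another leukocyte marker, S100a9, had 35 counts there and at most 30 elsewhere. Ptprc, Csf1r and Ncr1 were lowest there, with 66, 37 and 0 counts. The stromelysin Mmp3 had 23 counts at the AM pole and 0 in all other libraries. Outside the 6 Mmp genes with 10 CPM or more, the highest level was the 3.43 CPM of Mmp9 at the AM pole.

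Of the inhibitors, Timp1 was called higher and Timp3 lower on day 4 evening than in the morning. Timp1 (chromosome X, 20870166 to 20874737), a secreted inhibitor of most Mmp enzymes, had 38, 44 and 260 counts in the day 3 morning, day 4 morning and day 4 evening libraries, 127 at the M pole and 1127 at the AM pole. It was low in both morning libraries before attachment, already higher on day 4 evening and highest at the AM pole. From day 4 morning its log2 rise was 2.69 [2.28, 3.24] on day 4 evening, 1.43 [0.969, 2.004] at the M pole and 4.68 [4.30, 5.21] at the AM pole. At the AM pole Timp1 was 9.47-fold higher than at the M pole, a log2 difference of 3.24 [3.00, 3.54].

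Timp3 (chromosome 10, 86300412 to 86349505) binds to the extracellular matrix and also blocks Adam17 and several Adamts enzymes. Its counts were 1659, 2600, 1018, 711 and 1402, with the peak on day 4 morning. It was lower than in that library, with log2 differences of -1.17 [-1.28, -1.06] on day 4 evening and -1.92 [-2.05, -1.80] at the M pole, and the value at the AM pole was -0.83 [-0.93, -0.74], short of a call. At the AM pole Timp3 was higher than at the M pole by 1.09 [0.96, 1.23], or by 0.78 with library totals and 0.81 with totals without Rn45s and Lars2, both of which end the call. Timp2 (chromosome 11, 118301061 to 118355411), which takes part in the activation of Mmp2 by Mmp14, had 223, 241, 207, 318 and 111 counts. Its values in the first 3 libraries were close together, and it was 2.62-fold lower at the AM pole than at the M pole. Against day 4 morning the fall at the AM pole was -1.04 [-1.40, -0.73], and it was -0.996 with DESeq2 size factors, which ends the call.

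Summed over each family and per length, the Timp genes gave 26.5, 37.5, 35.8, 20.7 and 92.8 RPKM in the 5 libraries, and the Mmp genes 106, 64.9, 63.7, 126 and 138 RPKM. The ratio of the Timp to the Mmp sum was 0.25, 0.577 and 0.562 in the day 3 morning, day 4 morning and day 4 evening libraries, 0.164 at the M pole and 0.675 at the AM pole. The leading Timp changed within this series. Timp3 made up 82.6% of the Timp sum on day 4 morning, and Timp1 made up 51.5% on day 4 evening and 79.2% at the AM pole. At the M pole Timp3 led again, with 39.4% against 37.0% for Timp1. These ratios compare transcripts and not active enzyme, which also depends on the cutting of the propeptide.

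**Figure D2:**
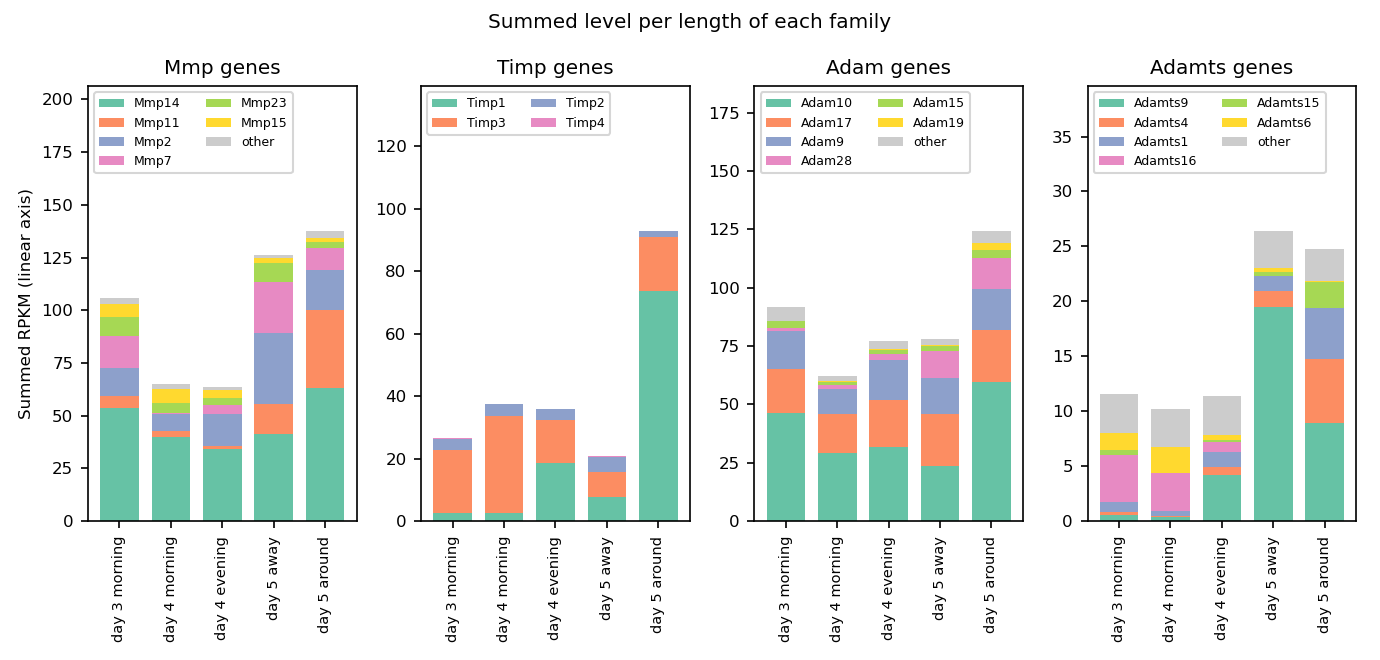
Summed RPKM of the Mmp, Timp, Adam and Adamts genes in the 5 libraries, 1 panel per family with its own linear axis from 0 and each bar divided by gene. The Timp bar is 92.8 RPKM at the AM pole and mostly Timp1, and Adamts9 makes up 73.9% of the Adamts bar at the M pole and 36.2% at the AM pole.

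Among the best known sheddases, 1 of 3 passed a log2 difference of 1 in any comparison. Adam10 (chromosome 9, 70679001 to 70780229), which cuts E-cadherin, Notch receptors and several growth factors, had 3686, 2400, 2303, 2036 and 4723 counts. It had the highest RPKM of the Adam genes in each library, between 23.8 and 59.8. At the AM pole Adam10 was called higher than at the M pole, by 1.33 [1.25, 1.40], and than on day 4 morning, by 1.04 [0.97, 1.11], the latter falling to 0.89 with library totals without Rn45s and Lars2, which ends that call. Adam17 (chromosome 12, 21323509 to 21373591), the enzyme that releases tumour necrosis factor and several ligands of the EGF receptor, had 1463, 1331, 1398, 1816 and 1689 counts. Of its 4410 counted bases 99 overlap Iah1 on the opposite strand. Adam9 (chromosome 8, 24949611 to 25016922) had 1116, 783, 1116, 1162 and 1223 counts. No comparison of Adam17 or Adam9 passed a log2 difference of 1, and the largest were 0.40 [0.30, 0.51] for Adam17 and 0.70 [0.57, 0.84] for Adam9, both at the AM pole against day 4 morning.

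Adam28 (chromosome 14, 68606027 to 68655842), an active protease first known from lymphocytes and epididymis, had 108, 104 and 143 counts up to day 4 evening, 822 at the M pole and 873 at the AM pole. Both day 5 libraries were above the others, and they differed from each other by only 0.20 [0.06, 0.34]. The rise from day 4 morning was 2.90 [2.63, 3.24] at the M pole and 3.10 [2.84, 3.44] at the AM pole. Adam19 (chromosome 11, 46055987 to 46147342), known from neuregulin processing and heart development, had 32, 42, 53, 60 and 328 counts. Only the AM pole library stood out, with a log2 difference of 2.52 [2.16, 2.99] from the M pole library.

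Adam12 (chromosome 7, 133883199 to 134225097), a protease expressed in placenta and in mesenchymal cells, had 216, 141, 139, 65 and 204 counts. It was lowest at the M pole, 2.21-fold below day 4 morning, and 3.32-fold higher at the AM pole than there. With library totals the value at the M pole against day 4 morning was -0.87, which ends the call. Adam15 (chromosome 3, 89339640 to 89350010) had 142, 78, 78, 130 and 173 counts and was called higher at the AM pole than on day 4 morning, by 1.19 [0.82, 1.61]. Adam8, a protease of leukocytes and activated epithelia, stayed below 10 CPM but had 73, 10, 33, 33 and 133 counts, which dipped on day 4 morning and peaked at the AM pole. Adam22, which lacks an active protease site and is best known from neurons, had 4, 2, 22, 62 and 29 counts.

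**Figure D3:**
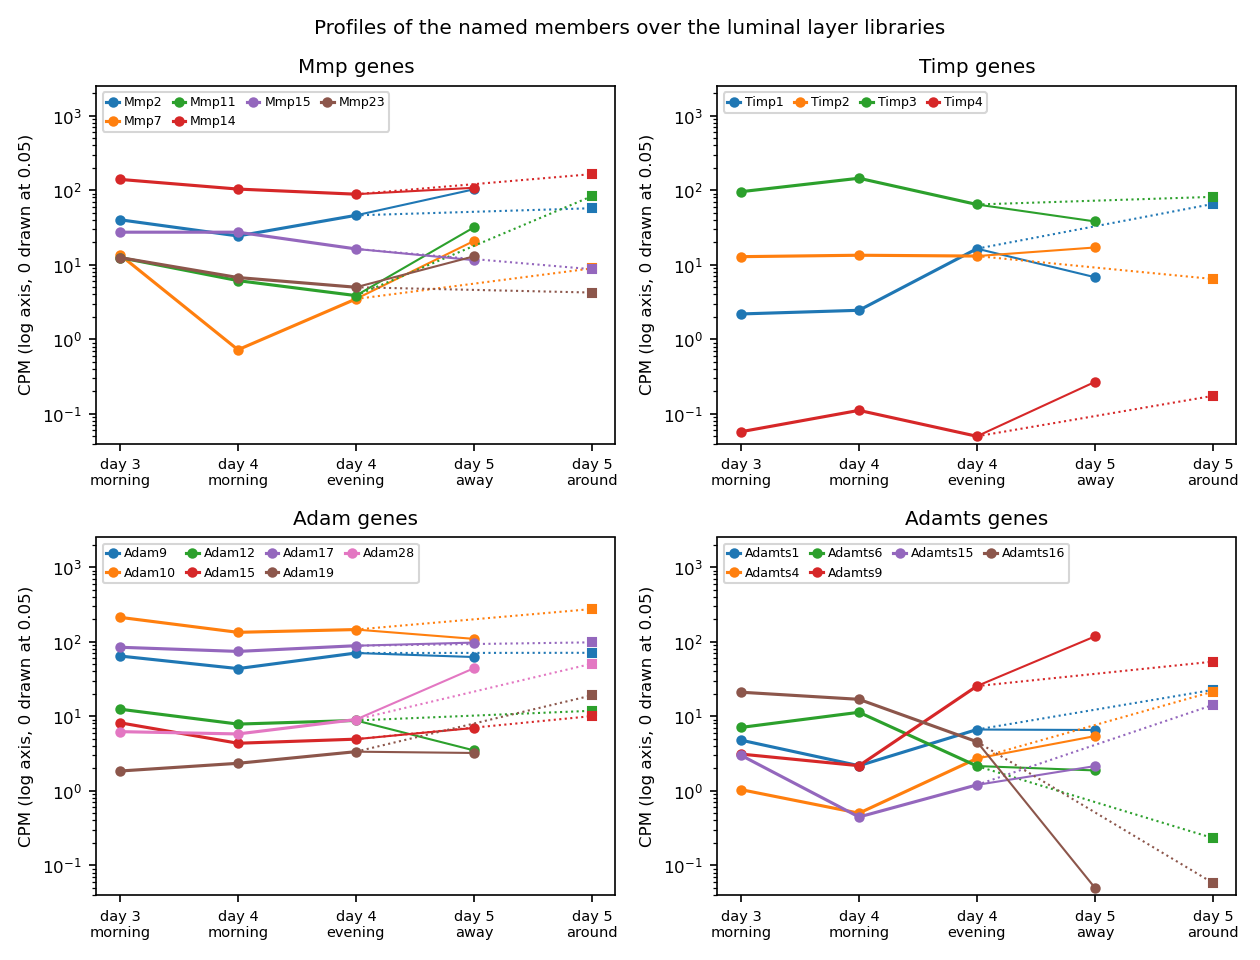
CPM of the named members on a log axis, 1 panel per family, with circles joined from day 3 morning to day 4 evening, a solid line on to the day 5 M pole and a dotted line to day 5 at the AM pole (square). A count of 0 is drawn at 0.05 CPM, and Adamts9 climbs from 2.17 to 118 CPM at the M pole while Adamts16 falls from 16.9 to 0.

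Over the 5 comparisons, Adamts genes held the largest rise and the largest fall of the named members. Adamts9 (chromosome 6, 92772699 to 92901441), a secreted enzyme that cuts versican and aggrecan, had 54, 39 and 402 counts in the day 3 morning, day 4 morning and day 4 evening libraries, 2197 at the M pole and 930 at the AM pole. It was low in both morning libraries before attachment, and the 3 later libraries were 11.2-fold, 51.6-fold and 23.7-fold higher than day 4 morning. The log2 rise from day 4 morning was 3.48 [3.07, 4.06] on day 4 evening, 5.69 [5.31, 6.26] at the M pole and 4.56 [4.17, 5.14] at the AM pole. Between the day 5 libraries it was lower at the AM pole, with a log2 difference of -1.12 [-1.24, -1.01]. Adamts9 made up 73.9% of the summed Adamts RPKM at the M pole.

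Adamts1, Adamts4 and Adamts15 also cut hyaluronan-binding proteoglycans, and all were highest at the AM pole. Adamts1 (chromosome 16, 85793828 to 85803115), known for its role in ovulation, had 83, 39, 105, 122 and 389 counts. Adamts4 (chromosome 1, 171250422 to 171259922), an aggrecanase, had 18, 9, 43, 101 and 368 counts. Adamts15 (chromosome 9, 30899155 to 30922452) had 52, 8, 19, 40 and 244 counts.

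Each of the 3 genes was lowest on day 4 morning, was called higher on day 4 evening (for Adamts15 by 1.23 [0.17, 2.83]) and was called higher again at the AM pole than at the M pole. Differences between the day 5 libraries were 1.77 [1.49, 2.09] for Adamts1, 1.96 [1.66, 2.31] for Adamts4 and 2.66 [2.24, 3.24] for Adamts15. Against day 4 morning, the 9 counts of Adamts4 and the 8 of Adamts15 leave wide intervals, [4.47, 6.55] and [3.99, 6.22] at the AM pole. Adamts5, a hyalectanase of the same group, went the other way with 90, 35, 31, 8 and 8 counts.

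Adamts16 and Adamts6 fell. Adamts16 (chromosome 13, 70727808 to 70841810), a protease known from ovary and kidney, had 365, 303 and 72 counts in the day 3 morning, day 4 morning and day 4 evening libraries, 0 at the M pole and 1 at the AM pole. From day 4 morning it was lower, with a log2 difference of -1.86 [-2.28, -1.52] on day 4 evening, and at least 105-fold lower at the M pole, against a floor of 3 counts in that library. At the AM pole the difference was -6.62 with the prior count, and the ratio of the scaled counts without it was -8.18 [-13.49, -5.69] on the log2 scale. Counts of 0 and 1 do not order the day 5 libraries. Adamts6 (chromosome 13, 104287873 to 104494763), whose loss affects heart development, had 123, 203, 34, 35 and 4 counts. Its fall was already 5.04-fold on day 4 evening, and at the AM pole it reached -5.04 [-7.49, -4.23]. Among the members below 10 CPM, Adamts19 fell to 0 counts at the AM pole from 45 on day 4 morning, and Adamts2, which trims procollagen, had 71, 79, 65, 35 and 115 counts.

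From day 3 to day 4 morning, which compares the uterus before receptivity with the receptive uterus, 1 of the 33 members that passed the filter was called higher and 8 lower, where 7.47% of all genes tested were called higher and 11.5% lower. Mmp19 was the one called higher, and those called lower were Mmp7, Mmp11, Adam1a, Adam8, Adam11, Adamts1, Adamts5 and Adamts15. The median log2 difference of the members was -0.56, and that of all genes 0.00. From day 4 morning to day 4 evening, in the hours before attachment, 8 members were called higher and 3 lower, against 7.21% and 6.95% of all genes. The 8 were Timp1, Mmp7, Adam8, Adam22, Adamts1, Adamts4, Adamts9 and Adamts15, and the 3 were Timp3, Adamts6 and Adamts16.

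Between day 4 morning and day 5 morning, 12 members were called higher and 9 lower at the M pole, where 14.9% of all genes were higher and 14.3% lower. At the AM pole the same contrast gave 15 members higher and 9 lower, against 20.7% and 22.6% of all genes. Both contrasts share the day 4 morning library, whose label names no pole. The median of the members was 0.44 at the M pole and 0.67 at the AM pole. By family, 5 Adamts genes were higher and 5 lower at the M pole, and 7 of the 12 Adams that passed were higher at the AM pole with 1 lower. At the AM pole against the M pole, 11 members were called higher and 9 lower, where 13.4% of all genes were higher and 15% lower. Expressed as shares of the 33 members, the calls were 36.4% higher and 27.3% lower at the M pole, 45.5% and 27.3% at the AM pole, and 33.3% and 27.3% between the day 5 libraries. The split of all genes depends on scaling. With library totals it was 538 higher and 2209 lower on day 4 against day 3 morning in place of 965 and 1480, 2690 and 1399 at the M pole against day 4 morning in place of 1930 and 1850, and 1288 and 2807 between the day 5 libraries in place of 1729 and 1932. The members called were then 14 higher and 4 lower at the M pole against day 4 morning, and 10 and 11 between the day 5 libraries, where their median turned from 0.19 to -0.12. Of the 33 members 11 are below 10 CPM in each library, and 2 of the 33, Adam11 and Adam22, passed only through the library in which they were highest, since their mean over the other 4 libraries was under 1 CPM.

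**Figure D4:**
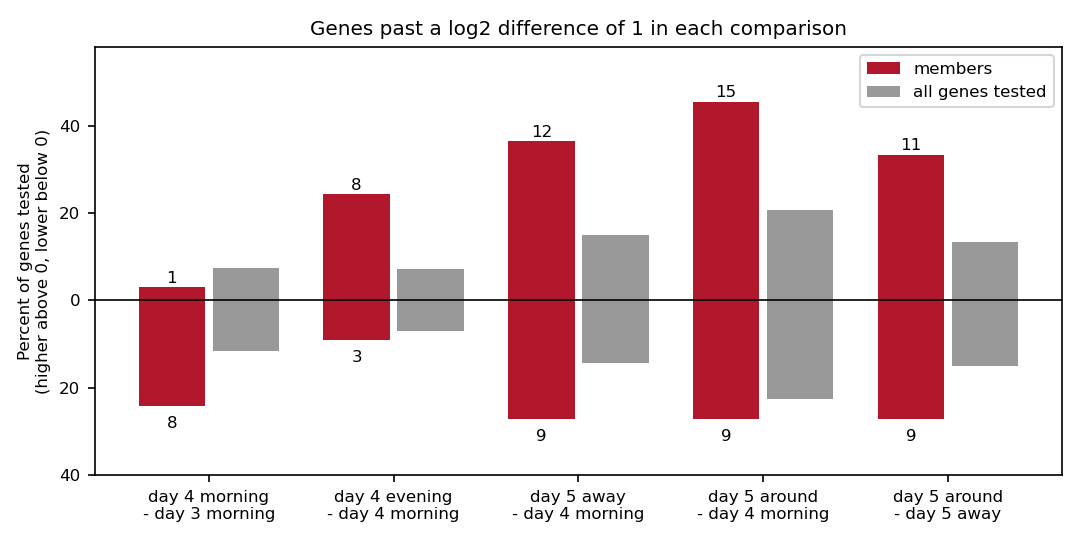
Percent of the 33 tested members (red) and of all 12915 tested genes (grey) that passed a log2 difference of 1 in each of 5 comparisons, drawn above 0 for higher and below 0 for lower, with the number of members written at each red bar. The red bars exceed the grey ones in each comparison and direction except for genes higher on day 4 than on day 3 morning. Some gaps are narrow, as for genes lower on day 4 evening (9.09% against 6.95%, 3 members). Another is genes lower at the AM pole than on day 4 morning (27.3% against 22.6%, 9 members).

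Genes that work with these proteases were read from lists of ligands, partners, activators and substrates. All 7 tested EGF family ligands that Adams release were called higher at the AM pole than on day 4 morning, and 3 were at the M pole, where 20.7% and 14.9% of all genes were higher. Their median log2 difference was 5.38 at the AM pole and 0.74 at the M pole. Epgn, with 88 counts at the AM pole and at most 3 elsewhere, and Nrg1, with 193 and at most 18, passed the filter only through the AM pole library and were named after their values were seen. Hbegf, the heparin-binding ligand, had 134 counts on day 4 morning, 876 at the M pole and 5444 at the AM pole, and Ereg, epiregulin, had 28, 50 and 14198. For Ereg the log2 difference between the day 5 libraries was 8.20 [7.87, 8.70]. Of 12 other tested substrates of Adams, 5 were higher and 1 lower in each day 5 library than on day 4 morning, against 14.9% and 14.3% of all genes at the M pole and 20.7% and 22.6% at the AM pole. Their median was 0.70 at the M pole and 0.62 at the AM pole. Sdc1, a cell surface proteoglycan, had 283, 3926 and 7293 counts in the same 3 libraries, and the receptor Notch1 had 1053, 461 and 427. Between the day 5 libraries, where 13.4% of all genes were higher and 15% lower, 3 of these 12 were higher at the AM pole, led by Efnb1 with 787 against 194 counts, and 2 lower, led by L1cam with 108 against 365.

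Of 8 tested partners that carry Adam17 and Adam10 to the cell surface, 5 were called higher and 1 lower in each day 5 library against day 4 morning. Of all genes 14.9% were higher and 14.3% lower at the M pole, and 20.7% and 22.6% at the AM pole. The median of the partners was 1.22 at the M pole and 1.42 at the AM pole. Rhbdf1, an iRhom that carries Adam17, had 65 counts on day 4 morning, 504 at the M pole and 401 at the AM pole. The tetraspanin Tspan33 had 51, 312 and 1405 counts, and Tspan15, a tetraspanin that binds Adam10, fell from 683 to 44 and 23. Proprotein convertases, which activate many of these enzymes, were higher for 2 of 4 at the M pole and 3 of 4 at the AM pole, and none was lower, where 14.9% and 20.7% of all genes were higher. Their median was 1.11 and 2.21. Pcsk6 had 3, 2087 and 2043 counts in those libraries, and Pcsk5 had 221, 742 and 1561. Of 5 tested genes of plasminogen activation, 1 was higher and 3 lower at the M pole, and 4 were higher and 1 lower at the AM pole, against 14.9%, 14.3%, 20.7% and 22.6% of all genes. Their median was -1.22 at the M pole and 3.41 at the AM pole, and 2 of the 5 passed the filter only through the AM pole library. Plaur, the urokinase receptor, had 6, 89 and 772 counts, and Plat, tissue plasminogen activator, had 3889, 638 and 954.

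Among 7 tested regulators of metalloproteinases 4 were higher at the AM pole than at the M pole and 2 lower, against 13.4% and 15% of all genes, with a median of 1.09. One of the 4, Thbs2, had 109 counts at the AM pole and at most 13 elsewhere and passed the filter only through that library. Reck, a membrane-anchored inhibitor of Mmp enzymes, had 189 counts on day 4 morning, 196 at the M pole and 9 at the AM pole, a log2 difference of -4.06 [-5.48, -3.38] between the day 5 libraries. Thbs1, thrombospondin 1, had 3912, 170 and 1962 counts, and Sfrp1 had 8, 144 and 743. Only 1 of 6 Adamts-like genes, Adamtsl4, passed the filter, with 157 counts at the AM pole and 54 at the M pole. Of the astacins 3 passed, and Tll1, a relative of Bmp1 in procollagen processing, had 7, 2848 and 2651 counts while Bmp1 had 138, 283 and 808. Of 14 tested matrix substrates 5 were higher and 5 lower at the AM pole than at the M pole, against 13.4% and 15% of all genes, with a median of 0.14. Col4a2, a chain of basement membrane collagen, had 1644 against 539 counts there, and Col3a1 had 729 against 2640.

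Markers of other cells moved as well, and their part in these differences was not tested. The 10 stromal markers summed to 577, 505, 588, 523 and 393 CPM in the 5 libraries, and none was at 0. Without Col3a1 the other 9 summed to 355, 330, 373, 382 and 351 CPM. The 5 smooth muscle markers summed to 10.8, 18.9, 24.4, 31.6 and 392 CPM, with Cnn1 at 0 on day 4 morning and Des taking 6090 counts at the AM pole. Without Des the other 4 summed to 4.49, 2.62, 10.3, 11.8 and 38.0 CPM. The 6 endothelial markers summed to 13.2, 26.6, 30.1, 45.7 and 96.2 CPM, the last with 1229 counts of Cdh5 while Kdr was at 18. Without Cdh5 the other 5 summed to 10.4, 18.2, 19.3, 38.6 and 24.8 CPM. The 7 leukocyte markers in the table summed to 21.5, 43.1, 36.3, 31.9 and 64.8 CPM, with Cd3e at 0 on day 4 evening and Ncr1 at 0 at the AM pole, where S100a8 took 955 counts and Ptprc 66. S100a8 alone was 55.45 of the 64.8 CPM. Lower at the AM pole than at the M pole were Ptprc (66 against 250 counts), Csf1r (37 against 170), Itgam (20 against 67), Ncr1 (0 against 86) and Cd3e (3 against 13). S100a9 was higher there, with 35 against 3. The 10 embryo markers summed to 1558, 2141, 1826, 768 and 2379 CPM, of which Sox17 alone took 1553, 2129, 1818, 762 and 2277. The other 9 summed to 4.72, 12.5, 7.59, 6.17 and 102 CPM, highest at the AM pole, where Eomes, Elf5 and Tfap2c had 609, 317 and 673 counts. These genes were also counted in the libraries of day 3, of day 4 and of the M pole. In that order Eomes had 23, 62, 40 and 26 counts, Elf5 49, 148, 77 and 10, and Tfap2c 10, 15, 3 and 79. Of 6 gland markers 4 were in the table, and they summed to 3.92, 3.79, 0, 3.22 and 25.7 CPM, with Foxa2 at 0 on day 4 evening and at 21 counts at the AM pole. Lif, with 304 counts, took 17.7 of the 25.7 CPM at the AM pole, and the other 3 genes summed to 1.84, 2.84, 0, 3.11 and 8.07 CPM. The study places Lif on day 5 in the stroma near attached embryos, so it is not specific to glands at that site. Which cells gave these counts was not tested.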

How the data were processed

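Raw gene counts of 5 libraries were deposited by the authors, made per the labels with the NucleoSpin and SMART-seq v.4 kits, aligned with HISAT2 to GRCm38/mm10 and counted with featureCounts of Subread 2.0.0. The gene annotation, the strand setting and the treatment of reads with several alignments are not given in the sources used here. The deposited table also holds other values, namely each gene's length in bases. The counts were handled in Python 3.11.15, pandas 2.3.3, numpy 2.4.6 and scipy 1.17.1 and scaled by TMM in R 4.3.3 with edgeR 4.0.16. Log2 CPM carried a prior count of 2, genes averaging 1 CPM or more were kept, and a log2 difference beyond 1 was a call, the fold of the study without its false discovery rate, since 1 library per group gives no dispersion. Plots used matplotlib 3.10.9. Folds against 0 counts used a floor of 3 counts per library. PCR copies are not independent molecules, so intervals and floors cover counting error only.

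Named were all members with at least 10 CPM in 1 or more libraries, Timp1 to Timp4, Adam10 and Adam17, and from each list the leading gene in each direction between day 4 morning and the day 5 M pole and between the day 5 libraries. Some genes that this rule names are not reported here. The other members and list genes were named after their values were seen. The members and lists were chosen with earlier results of these data known. Alternatives were DESeq2 1.42.0 size factors, library totals with and without Rn45s and Lars2, a prior count of 0.5, no filter, a mean of at least 5 CPM, a log2 difference beyond 2 and edgeR's exact test at a dispersion of 0.1 with a false discovery rate under 0.05. A call that also needs a counting interval clear of no change was added after seeing the data. The calls were tested before use on simulated counts that carry counting error only. Such counts cannot show how the calls behave under differences between mice or dissections.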

Additional observations from a re-analysis of the deposited data

How the results depend on the processing

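No paired analysis was possible because each group holds 1 library. The number of members called higher was 8 on day 4 evening against day 4 morning, 1 on day 4 against day 3 morning, 15 at the AM pole and 12 at the M pole against day 4 morning, and 11 between the day 5 libraries. In the same order the members called lower were 3, 8, 9, 9 and 9. Without a filter the numbers higher were 13, 6, 24, 19 and 20 and those lower 10, 17, 17, 14 and 17. With a mean of at least 5 CPM, the first 2 numbers higher were 5 and 0, and the last 4 numbers lower were 3, 3, 4 and 4. Beyond a log2 difference of 2, the numbers higher were 5, 0 and 4 on day 4 evening, on day 4 morning and between the day 5 libraries, and the numbers lower were 1, 3, 5, 2 and 5. The exact test at a dispersion of 0.1 (a comparison of libraries rather than conditions) gave 2, 0, 7 and 5 members higher on day 4 evening, on day 4 morning, at the M pole and between the day 5 libraries, and 0, 3, 5, 3 and 5 lower in the order above. With library totals no member was called higher on day 4 morning (0), and 4 were lower at the M pole. The numbers with DESeq2 size factors, a prior count of 0.5 and the counting interval were within 1.5 times of those reported. Library totals shifted the median of all genes to -0.29 for day 4 against day 3 morning, 0.28 at the M pole and -0.36 between the day 5 libraries, and the median of the members in the last of these from 0.19 to -0.12. Of 57 calls of named members, DESeq2 size factors ended 2, library totals 3 and totals without Rn45s and Lars2 2, and a prior count of 0.5 ended 0. Calls gained were 0, 6, 5 and 4 in the same order. With library totals they were Mmp2 (-1.02), Mmp23 (-1.18), Adam15 (-1.19) and Adamts4 (-1.16) on day 4 against day 3 morning, Mmp23 (1.21) at the M pole and Mmp2 (-1.15) between the day 5 libraries. No call of a named member turned its direction under any scaling. The same calls over all genes, given as higher and lower in the order day 4 against day 3 morning, day 4 evening, M pole, AM pole and between the day 5 libraries, were 965 and 1480, 931 and 898, 1930 and 1850, 2675 and 2922, and 1729 and 1932. The exact test gave 93 and 383, 158 and 83, 747 and 759, 1591 and 1567, and 795 and 605. Beyond a log2 difference of 2 they were 154 and 531, 308 and 180, 742 and 749, 1358 and 1292, and 757 and 641. Without a filter they rose past 1.5 times to 1686 and 2682 on day 4 morning, 1932 and 1653 on day 4 evening, 4321 higher at the AM pole and 3110 higher between the day 5 libraries. With a mean of at least 5 CPM they were 566 and 872, 550 and 465, and 1264 lower between the day 5 libraries. With 1 library a group, depth does not stand in for replicates.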
